A study of Mus musculus with 4 samples.

Results

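Genes that drive or carry out DNA replication and cell division were followed in cultured mouse ureters. A list of 57 gene names was matched to the names on the array, and all 57 were found among 29924 gene names, on 84 of 39429 probes that are not controls. Where a gene had more than 1 probe, as 20 did, the brightest tested probe stood for it. A probe entered the tests if at least 1 group had it well above background in both of its pools, and 55 of the 57 genes and 20229 genes in all had such a probe. *Ccne2*, a G1/S cyclin, was well above background in 0 of 8 pools and *Aurkb*, the kinase of the chromosomal passenger complex, in 1 of 8, and neither was tested. *Cenpf*, a kinetochore protein gene, passed with 7 of 8 pools, the exception being in the control group with purmorphamine.

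Ureters of NMRI mice were explanted at birth (P0) and kept in culture for 8 days, with either the vehicle DMSO or 2 µM purmorphamine, a small-molecule agonist of SHH signaling. Control ureters carried the floxed *Pparg* allele without cre, given in the labels as Pparg (fl/?), so that the second allele is not specified. *Pparg-cKO* ureters had the genotype Pax2-cre/+; Pparg (fl/fl), in which cre removes exons 2 and 3 of the gene for the nuclear receptor PPARG from the ureteric epithelium, while the surrounding mesenchyme is not targeted. Each of the 4 groups consisted of 2 pools of whole ureters, 1 male (replicate 1) and 1 female (replicate 2), and the number of ureters per pool is not given for these cultures. On each of the 4 arrays, all of 1 slide, a DMSO pool was hybridized with the purmorphamine pool of the same genotype and sex. In male arrays DMSO was labeled with AlexaFluor555 and purmorphamine with AlexaFluor647, and in female arrays the dyes were exchanged, so that sex and dye cannot be told apart. p-values measure the spread between these pools only. In bulk RNA of whole ureters, fewer cycling cells and less RNA per cell cannot be told apart.

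As background, a dividing cell passes from G1 through S phase, in which origins licensed by the MCM complex are fired and DNA is copied, to G2 and mitosis. Cyclins activate CDKs at each step, CDK inhibitors restrain them, and E2F, MYBL2 and FOXM1 drive successive waves of transcription. In the perinatal ureter most cells withdraw from the cycle as the urothelium and the muscle coat mature, and basal cells keep the capacity to divide.

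Per channel, 66.3% to 70.5% of spots exceeded background clearly by the scanner's own test, with 0 saturated. Of the direct SHH target genes, *Ptch1*, the receptor gene, rose with purmorphamine by 1.62 in *Pparg-cKO* and 1.00 in control ureters on the log2 scale (adjusted p = 0.0140 and 0.0427). *Hhip*, encoding a ligand-binding antagonist, rose in *Pparg-cKO* ureters by 2.19 (adjusted p = 0.0164). The activator gene *Gli1* had 1.34 (adjusted p = 0.0515) in *Pparg-cKO* and 1.06 (adjusted p = 0.114) in control ureters. The single *Pparg* probe had log2 intensities of 14.79 and 15.31 in male and female control and 15.55 and 15.58 in *Pparg-cKO* pools with DMSO, and as its place relative to the deleted exons was not determined, it does not check the genotype.

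A set of replication and mitosis genes fell with purmorphamine in *Pparg-cKO* ureters. With Benjamini-Hochberg adjustment over all genes, limma called 12 of the 55 genes lower and 0 higher, where 3.1% of all genes were called lower. The 12 genes were *Tk1*, *Rrm2*, *Mcm3*, *Mcm10*, *Cdc6*, *Cdc45*, *Gmnn*, *Ccne1*, *Cdk1*, *Mad2l1*, *Birc5* and *E2f8*. At an unadjusted p under 0.05, 46 were lower (12.4% of all genes) and 2 were higher, and 49 had a value below 0 on both arrays (36.1% of all genes). The rule of the study's methods, a change of at least 1.5-fold in the same direction on both arrays with an intensity above 100, took 18 of 54 bright enough genes as lower (4.79% of such genes) and 0 as higher. The median log2 fold change was -0.67, with a male array at -0.44 and a female array at -0.88, and that of all genes was -0.0024. The calls lay close to the threshold, and which genes were called depended on the setting. With the mean of the probes of a gene 9 were called, 8 of them among the 12. With the replicate number as a block 6 were called, 5 of them among the 12. The called genes also changed when 1 array was left out. The median was -0.88 without the male *Pparg-cKO* array and -0.44 without the female one. There were 0 calls when dim probes were kept, when the processed signals were used or when the deposited fold changes were used, and 1 after median centring, while the median stayed between -0.59 and -0.68 in these and the other processing alternatives.

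**Figure D1:**
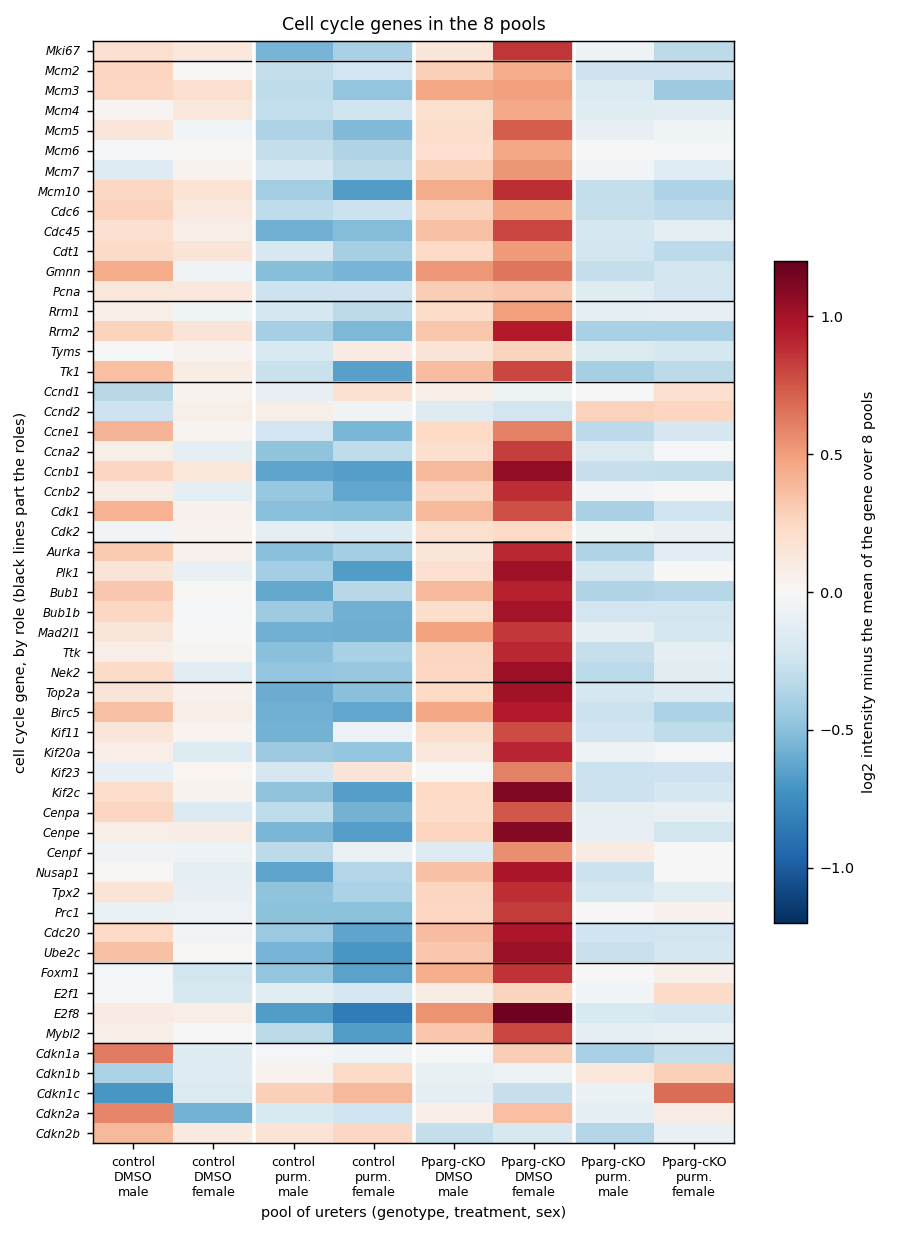
Log2 intensity of the 55 tested genes (rows, grouped by role) in the 8 pools (columns), each as the difference from the gene's own mean over the pools. The female *Pparg-cKO* pool with DMSO is the darkest red column and holds the highest value for 48 of 55 genes, the purmorphamine columns are mostly blue, and the CDK inhibitors at the bottom do not follow the rows above.

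In control ureters most of the 55 genes also had lower values with purmorphamine, without a call. Limma called 0 of 55 genes (1.12% of all genes were called lower), and the smallest adjusted p was 0.0823, for *Cdk1*. At an unadjusted p under 0.05, 37 were lower (9.83% of all genes) and 2 higher, 46 were below 0 on both arrays (28% of all genes), and the rule of the methods took 11 of 54 as lower (3.68% of bright enough genes) and 0 as higher. The median log2 fold change was -0.49, with the male array at -0.58 and the female array at -0.41, against 0.0154 for all genes. Without either *Pparg-cKO* array the median stayed at -0.49. Calls appeared in these fits, and the reason was not tested. Median centring in place of loess shifted the median of all genes in control ureters to 0.14 and that of the 55 genes to -0.30, which leaves them lower relative to that shift, with 9 lower at an unadjusted p under 0.05.

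Over both genotypes, all 4 purmorphamine pools lay below all 4 DMSO pools for 33 of the 55 genes, which was the case for 9.39% of all genes. The 22 genes without this order included all 5 CDK inhibitors, *Ccnd1*, *Ccnd2*, *E2f1*, *Foxm1*, *Plk1* and *Nusap1*. For *Cdkn1b* and *Cdkn1c* the 4 purmorphamine pools lay above the DMSO pools, without a call for either gene. How many of all genes had this reverse order was not counted.

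**Figure D2:**
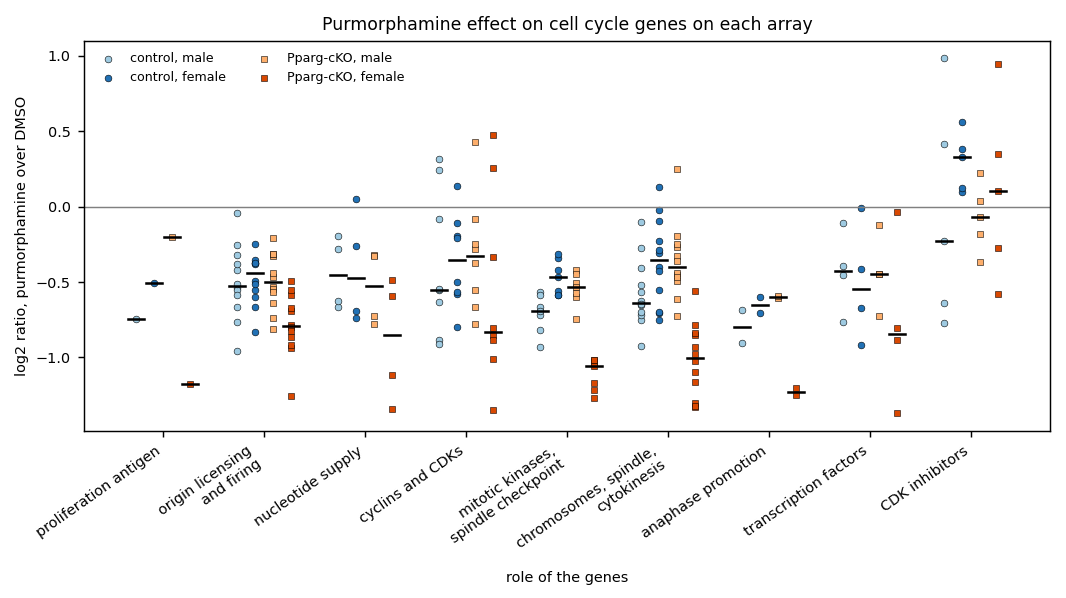
Log2 ratio of purmorphamine over DMSO for each gene (points) on each of the 4 arrays, by role of the gene, with the median as a black bar. The median of the female *Pparg-cKO* array lies lowest in every role but the CDK inhibitors, and only CDK inhibitors, D-type cyclins, *Tyms*, *Kif23* and *Cenpf* have points above 0.

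The proliferation antigen gene *Mki67*, transcribed in all phases but G0, had log2 intensities of 13.25 (male) and 13.19 (female) in control pools with DMSO and 12.51 and 12.68 with purmorphamine. In *Pparg-cKO* pools it had 13.21 and 13.93 with DMSO and 13.01 and 12.75 with purmorphamine. All purmorphamine pools were below all DMSO pools, and the female *Pparg-cKO* DMSO pool stood highest. The log2 fold change with purmorphamine was -0.69 ± 0.24 (SE, adjusted p = 0.190) in *Pparg-cKO* and -0.63 ± 0.24 (adjusted p = 0.255) in control ureters, so it was not called in either.

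Of the 12 tested genes of origin licensing and firing, 5 were called lower with purmorphamine in *Pparg-cKO* ureters (3.1% of all genes). All 12 were below 0 on both arrays in both genotypes (36.1% of all genes in *Pparg-cKO* and 28% in control ureters). *Mcm10*, which helps to activate the MCM helicase, had 10.90 and 10.81 in male and female control pools with DMSO, 10.23 and 9.98 in control pools with purmorphamine, 11.10 and 11.53 in *Pparg-cKO* pools with DMSO and 10.36 and 10.28 in *Pparg-cKO* pools with purmorphamine. Its log2 fold change was -0.996 ± 0.15 (SE, adjusted p = 0.0380) in *Pparg-cKO* and -0.75 ± 0.15 (adjusted p = 0.0973) in control ureters. *Gmnn*, the gene of the licensing inhibitor geminin, had 11.19 and 10.70 in control DMSO, 10.24 and 10.19 in control purmorphamine, 11.27 and 11.38 in *Pparg-cKO* DMSO and 10.46 and 10.52 in *Pparg-cKO* purmorphamine pools. The treated and untreated pools of *Gmnn* and *Mcm10* did not overlap. For *Gmnn* the probe used gave -0.84 in *Pparg-cKO* ureters, and a dimmer probe, well above background in all 8 pools, gave -0.34. With the mean of its probes *Gmnn* had -0.59 and was not called. *Mcm3*, a subunit of the helicase, had 13.39 and 13.33, 12.83 and 12.67, 13.61 and 13.64, and 12.97 and 12.70 in the same order, a fall with purmorphamine of -0.79 ± 0.12 (adjusted p = 0.0375) in *Pparg-cKO* ureters. *Cdc45*, another helicase component, and *Cdc6*, a licensing factor, had -0.74 (limma adjusted p = 0.0478) and -0.67 (limma adjusted p = 0.0498). A dimmer *Cdc6* probe, well above background in all 8 pools, gave -0.50, and with the mean of its probes *Cdc6* was not called. The other 7, *Mcm2*, *Mcm4*, *Mcm5*, *Mcm6*, *Mcm7*, *Cdt1* and *Pcna*, had values of -0.35 to -0.65 in *Pparg-cKO* ureters and did not pass.

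Of the 4 genes of nucleotide supply, 2 were called lower in *Pparg-cKO* ureters (3.1% of all genes). *Tk1*, thymidine kinase, had the smallest adjusted p of all 55 genes. Its log2 intensities were 13.42 and 13.14 in control DMSO, 12.79 and 12.40 in control purmorphamine, 13.43 and 13.86 in *Pparg-cKO* DMSO and 12.65 and 12.74 in *Pparg-cKO* purmorphamine pools, which do not overlap between treatments. The log2 fold change was -0.95 ± 0.13 (SE, adjusted p = 0.0293) in *Pparg-cKO* and -0.68 ± 0.13 (adjusted p = 0.0831) in control ureters. *Rrm2*, the regulated subunit of ribonucleotide reductase, had 14.22 and 14.11, 13.56 and 13.42, 14.29 and 14.91, and 13.56 and 13.57 in the same order, and fell by 1.03 on the log2 scale in *Pparg-cKO* ureters (adjusted p = 0.0422). *Rrm1*, the large subunit, had 13.01 and 12.89, 12.73 and 12.63, 13.16 and 13.43, and 12.84 and 12.85, with -0.45 (adjusted p = 0.0986), again without overlap between treatments. *Tyms*, thymidylate synthase, had -0.40 (adjusted p = 0.129) in *Pparg-cKO* and -0.07 (adjusted p = 0.815) in control ureters.

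Among the 8 tested cyclin and CDK genes, *Cdk1* and *Ccne1* were called lower in *Pparg-cKO* ureters, and the D-type cyclins had fold changes above 0. *Cdk1*, the kinase that starts mitosis, had 11.69 and 11.33 in control DMSO, 10.78 and 10.77 in control purmorphamine, 11.67 and 12.05 in *Pparg-cKO* DMSO and 10.89 and 11.04 in *Pparg-cKO* purmorphamine pools. Its log2 fold change was -0.89 ± 0.13 (SE, limma adjusted p = 0.0364) in *Pparg-cKO* and -0.74 ± 0.13 (limma adjusted p = 0.0823) in control ureters. In *Pparg-cKO* ureters 2 dimmer *Cdk1* probes, well above background in 4 and 7 of 8 pools, gave -0.35 each. With the mean of its probes *Cdk1* had -0.53 and was not called. *Ccnb1*, the mitotic partner of CDK1, had 12.87 and 12.75, 11.99 and 11.95, 13.01 and 13.68, and 12.34 and 12.33 in the same order, and with -1.01 ± 0.18 narrowly missed the threshold (adjusted p = 0.0503). *Ccne1*, a G1/S cyclin, had 12.49 and 12.12, 11.86 and 11.54, 12.33 and 12.70, and 11.77 and 11.89, with -0.68 ± 0.11 (adjusted p = 0.0435). For all 3 genes the purmorphamine pools lay below the DMSO pools. *Ccna2*, *Ccnb2* and *Cdk2* had -0.61, -0.58 and -0.29 and did not pass.

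The D-type cyclins couple growth signals to the cycle in G1. *Ccnd1* had 13.77 and 14.15 in control DMSO, 14.01 and 14.28 in control purmorphamine, 14.18 and 14.04 in *Pparg-cKO* DMSO and 14.09 and 14.30 in *Pparg-cKO* purmorphamine pools, and its groups overlapped. *Ccnd2* had 14.76 and 15.08, 15.07 and 14.96, 14.85 and 14.78, and 15.28 and 15.26 in the same order, and its treated *Pparg-cKO* pools were the highest of the 8. In *Pparg-cKO* ureters the purmorphamine value of *Ccnd2* was 0.45 ± 0.14 (SE, log2 scale, adjusted p = 0.138) and of *Ccnd1* 0.09 ± 0.13 (adjusted p = 0.790), and neither passed.

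The 7 tested mitotic kinases and spindle checkpoint genes were all below 0 on both arrays of both genotypes (36.1% of all genes in *Pparg-cKO* and 28% in control ureters). Their medians were -0.83 in *Pparg-cKO* and -0.61 in control ureters, and 1 was called, in *Pparg-cKO* ureters (3.1% of all genes). That was *Mad2l1*, the gene of the checkpoint protein MAD2, with -0.83 ± 0.14 (SE, limma adjusted p = 0.0464). Its dimmer probes, well above background in all 8 pools, gave -0.64 and -0.65, and with the mean of its probes *Mad2l1* was not called. *Bub1*, a kinetochore kinase, had 11.67 and 11.36 in control DMSO, 10.74 and 11.02 in control purmorphamine, 11.74 and 12.27 in *Pparg-cKO* DMSO and 10.99 and 11.00 in *Pparg-cKO* purmorphamine pools. All 4 purmorphamine pools lay below the DMSO pools, with -1.01 ± 0.20 (SE, log2 scale, adjusted p = 0.0607) in *Pparg-cKO* ureters. *Nek2*, a centrosomal kinase, had 10.37 and 10.01, 9.68 and 9.69, 10.39 and 11.17, and 9.82 and 10.01 in the same order, and its treatments met at 10.01. *Bub1b*, a checkpoint gene, had 11.41 and 11.16, 10.75 and 10.59, 11.38 and 12.17, and 10.93 and 10.95. *Ttk*, *Aurka* and *Plk1*, all mitotic kinases, had -0.78, -0.77 and -0.72 in *Pparg-cKO* ureters without passing.

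Of 12 genes for chromosome structure, the spindle and cytokinesis, 11 were below 0 on both arrays in each genotype (36.1% of all genes in *Pparg-cKO* and 28% in control ureters). *Birc5* alone was called, in *Pparg-cKO* ureters (3.1% of all genes). *Birc5*, encoding survivin of the chromosomal passenger complex, had 13.83 and 13.57 in control DMSO, 12.91 and 12.86 in control purmorphamine, 13.95 and 14.43 in *Pparg-cKO* DMSO and 13.22 and 13.10 in *Pparg-cKO* purmorphamine pools. It fell by 1.03 on the log2 scale (SE 0.17, adjusted p = 0.0440) in *Pparg-cKO* ureters, and its 3 probes gave -0.86 to -1.04. *Kif2c*, a microtubule-depolymerizing kinesin, had 10.66 and 10.48, 9.96 and 9.78, 10.68 and 11.55, and 10.19 and 10.25 in the same order. *Cenpe*, the kinetochore motor, had 12.23 and 12.23, 11.60 and 11.48, 12.41 and 13.25, and 12.04 and 11.93. *Top2a*, the topoisomerase that untangles chromosomes, had 11.58 and 11.48, 10.83 and 10.93, 11.67 and 12.44, and 11.21 and 11.28. All 4 genes separated the treatments, with no overlap among the 8 pools. The log2 fold changes in *Pparg-cKO* ureters were -0.90 ± 0.20 for *Kif2c*, -0.84 ± 0.24 for *Cenpe* and -0.81 ± 0.19 for *Top2a* (SE, adjusted p = 0.0795, 0.122 and 0.0865). *Nusap1*, *Kif11*, *Tpx2*, *Prc1*, *Cenpa*, *Kif20a* and *Kif23* had -0.52 to -0.80, and *Cenpf*, near background, had -0.15. *Kif23*, a kinesin of the central spindle, differed in control ureters, with -0.10 for males and 0.13 for females.

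The 2 genes that promote anaphase had like values in *Pparg-cKO* ureters and narrowly missed the threshold. *Ube2c*, the ubiquitin-conjugating enzyme of the anaphase-promoting complex, had 13.94 and 13.60 in control DMSO, 13.04 and 12.90 in control purmorphamine, 13.92 and 14.63 in *Pparg-cKO* DMSO and 13.32 and 13.38 in *Pparg-cKO* purmorphamine pools. *Cdc20*, the activator of that complex, had 14.10 and 13.83, 13.41 and 13.23, 14.23 and 14.83, and 13.62 and 13.63 in the same order. Both separated the treatments, with log2 fold changes of -0.92 ± 0.18 and -0.91 ± 0.17 (SE, adjusted p = 0.0582 and 0.0518).

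Of the transcription factor genes, *E2f8* had the largest fall of all 55 genes and *E2f1* did not pass. *E2f8*, an atypical E2F that represses E2F targets late in S phase, had 11.73 and 11.72 in control DMSO, 10.97 and 10.80 in control purmorphamine, 12.18 and 12.80 in *Pparg-cKO* DMSO and 11.45 and 11.43 in *Pparg-cKO* purmorphamine pools. Its log2 fold change with purmorphamine was -1.05 ± 0.18 (SE, adjusted p = 0.0442) in *Pparg-cKO* and -0.84 ± 0.18 (adjusted p = 0.0991) in control ureters. *Foxm1*, the activator of G2/M genes, had 10.74 and 10.54, 10.29 and 10.12, 11.20 and 11.63, and 10.75 and 10.82 in the same order, with -0.63 ± 0.13 (adjusted p = 0.0619) in *Pparg-cKO* ureters. *Mybl2*, which acts between the E2F and FOXM1 waves, had 10.86 and 10.79, 10.46 and 10.12, 11.11 and 11.58, and 10.67 and 10.70, with -0.67 ± 0.15 (adjusted p = 0.0792). For *Foxm1* the purmorphamine pools of *Pparg-cKO* ureters lay at or above the DMSO pools of control ureters, whereas for *E2f8* they lay below. *E2f1*, an activating E2F, had -0.08 ± 0.10 in *Pparg-cKO* and -0.06 ± 0.10 in control ureters.

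The 5 CDK inhibitors gave 0 calls with limma in any comparison. *Cdkn1b*, the gene of p27, had 12.97 and 13.19 in control DMSO, 13.38 and 13.57 in control purmorphamine, 13.25 and 13.28 in *Pparg-cKO* DMSO and 13.48 and 13.62 in *Pparg-cKO* purmorphamine pools. The 4 purmorphamine pools were the highest, with log2 fold changes of 0.29 ± 0.10 (SE, adjusted p = 0.190) in *Pparg-cKO* and 0.40 ± 0.10 (adjusted p = 0.133) in control ureters. *Cdkn1c*, the gene of p57, had 12.13 and 12.66, 13.11 and 13.22, 12.71 and 12.55, and 12.75 and 13.50 in the same order, and again all 4 purmorphamine pools exceeded the DMSO pools, with 0.77 ± 0.24 (adjusted p = 0.183) in control ureters. In *Pparg-cKO* ureters the value of *Cdkn1c* was 0.04 for males and 0.94 for females. *Cdkn1a*, the gene of p21 and a target of p53, had 12.49 and 11.71, 11.85 and 11.81, 11.84 and 12.16, and 11.47 and 11.58. On this probe the treated *Pparg-cKO* pools were the lowest, with -0.30 against control with purmorphamine. Its dimmer probes, well above background in all 8 pools, gave -0.03 and 0.31 there, so the probes did not share this order. *Cdkn2a*, the gene of p16 and ARF, had 10.26 and 9.11, 9.49 and 9.44, 9.74 and 10.04, and 9.56 and 9.76, so that the control DMSO pools held both its highest and its lowest value. *Cdkn2b*, the gene of p15, had 13.41 and 13.14, 13.18 and 13.26, 12.74 and 12.82, and 12.66 and 12.93. All 4 *Pparg-cKO* pools lay below all 4 control pools, without a call. How many of all genes had this order was not counted.

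**Figure D3:**
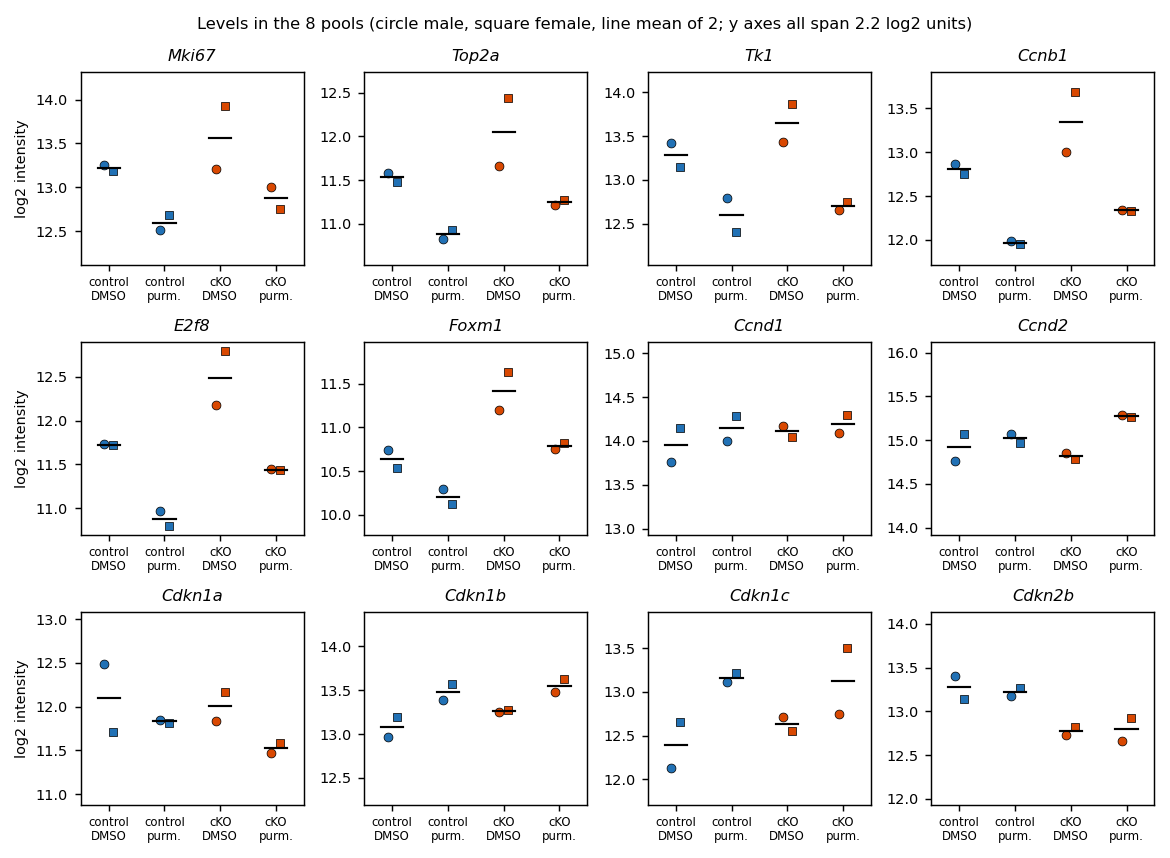
Log2 intensity of 12 genes in the 8 pools (circles male, squares female, blue control, orange *Pparg-cKO*, bar the mean of 2 pools). *Mki67* to *Foxm1* are lower with purmorphamine in both genotypes, *Cdkn1b* and *Cdkn1c* are higher, and *Cdkn2b* is lower in *Pparg-cKO* pools under both treatments.

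Promoter windows of 300 bases (250 before and 50 after the start of a gene) were available from RefSeq on GRCm38.p6. They covered 46 of the 57 genes, as 50 windows, and letters were counted by role and among the called genes. The CHR element, read as TTTGAA on either strand and known as the site of the repressive and activating complexes of G2/M genes, was found in 14 of 20 windows of the mitotic kinase, spindle and anaphase genes (70.0%), in 2 of 15 windows of the S phase genes (13.3%) and in 17.9% of all 32851 windows. E2F-type letters, TTTCGCGC, TTTGGCGC or TTCCCGCC on either strand, were in 6 of 15 windows of the S phase genes (40%), in 0 of the 20 windows of the mitosis genes and in 3.0% of all windows. The CCAAT box, CCAAT on either strand, was in 35 of the 50 windows (70.0%) and 37.4% of all windows. Of the 11 windows of genes called lower in *Pparg-cKO* ureters, 3 held CHR (27.3%), 2 E2F-type letters (18.2%) and 6 CCAAT (54.5%). Only 4 of these 11 held CHR or E2F-type letters. Of the 6 windows of CDK inhibitors, 1 held CHR, 0 E2F-type letters and 2 CCAAT. A match describes letters and was not tested as a site.

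Shown are stretches of 30 bases before the start of the called genes *Cdk1* and *E2f8*, of *Mki67*, and of mitosis and S phase genes. They were picked because these genes had values below 0 on all 4 arrays and hold these letters. In each stretch a single match is in capitals, and any further matches in it are not marked. The stretches are written along the strand of the gene, and TTCAAA is CHR on the other strand.
Cdk1, chr10:69352966-69352995, minus strand: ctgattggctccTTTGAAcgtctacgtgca
Cdk1, chr10:69353025-69353054, minus strand: tttccgctcccTTTCGCGCtctgcgctccc
Mki67, chr7:135716460-135716489, minus strand: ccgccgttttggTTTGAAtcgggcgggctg
Top2a, chr11:99024195-99024224, minus strand: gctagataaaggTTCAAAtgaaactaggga
Kif2c, chr4:117178858-117178887, minus strand: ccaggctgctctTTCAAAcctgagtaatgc
Ube2c, chr2:164769888-164769917, plus strand: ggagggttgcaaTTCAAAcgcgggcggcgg
Cdc20, chr4:118437344-118437373, minus strand: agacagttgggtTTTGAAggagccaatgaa
E2f8, chr7:48881599-48881628, minus strand: gagcgggttaatTTCAAAtcgggggctgga
Mcm5, chr8:75109345-75109374, plus strand: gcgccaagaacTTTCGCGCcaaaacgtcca
Rrm1, chr7:102441617-102441646, plus strand: aggagaactcgTTCCCGCCaggtccgcttt

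The effect of purmorphamine was not shown to differ between the genotypes. For the difference of the effects, limma called 0 of the 55 genes and 0 of all genes, and at an unadjusted p under 0.05 there were 0 of the 55 against 3.31% of all genes. The median difference was -0.16, with 0.12 between the male and -0.44 between the female arrays, and it was 0.0091 without the female *Pparg-cKO* array and -0.38 after median centring, where all genes had -0.17. The precision was low, and the 95% interval of the difference reached a median of 0.56 to either side on the log2 scale. For *Top2a* the difference was -0.16 with an interval of -0.85 to 0.54, for *Tk1* it was -0.26 (-0.72 to 0.19), and for *Kif23*, which had the smallest p (0.0638, limma, unadjusted), it was -0.57 (-1.19 to 0.05).

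With DMSO, most of the genes had higher values in *Pparg-cKO* than in control ureters, and the excess was mainly in the female pools. Limma called *Foxm1* alone (2.01% of all genes were called higher), with 0.77 ± 0.16 (SE) on the log2 scale and an adjusted p of 0.0497. In the alternatives, including those without 1 array, it was not called. A dimmer *Foxm1* probe gave 0.43. At an unadjusted p under 0.05, 23 were higher (8.01% of all genes) and 1, *Cdkn2b*, was lower (-0.50 ± 0.13, adjusted p = 0.118), and 40 were higher in both pairs of pools (27.1% of all genes). The rule of the methods took 0 of 54 as higher (2.58% of bright enough genes). The median was 0.42 (all genes 0.0042), composed of 0.11 for males and 0.76 for females. The value of the female pair was the larger for 50 of 55 genes. The female *Pparg-cKO* DMSO pool had the highest level of the 8 pools for 48 of 55 genes (13.7% of all genes), and the exceptions were *Ccnd1*, *Ccnd2* and the 5 CDK inhibitors. Without the array of that pool the median was 0.18, and without the male *Pparg-cKO* array, when *Cenpe*, *E2f8* and *Prc1* were called, it was 0.68. Without normalization between arrays it was 0.23, against -0.15 for all genes, and 5 genes were higher at an unadjusted p under 0.05.

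The medians by role lay between 0.19 and 0.64. The 4 transcription factor genes had a median of 0.64, with *E2f8* at 0.76 ± 0.19 (SE, adjusted p = 0.0975) and all 4 higher in both pairs. The spindle and cytokinesis genes had 0.53, with 0.09 for males and 0.93 for females, and the mitotic kinases 0.52, with 0.04 and 0.91. The origin licensing genes had 0.30, with 0.16 and 0.44, and 11 of 12 were higher in both pairs, as were 27.1% of all genes. *Mki67* had -0.04 between the male and 0.74 between the female pools. These DMSO pools of *Pparg-cKO* ureters also serve as the reference for the purmorphamine effect in that genotype, so that the higher level and the larger fall in the female pools rest on the same channel.

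**Figure D4:**
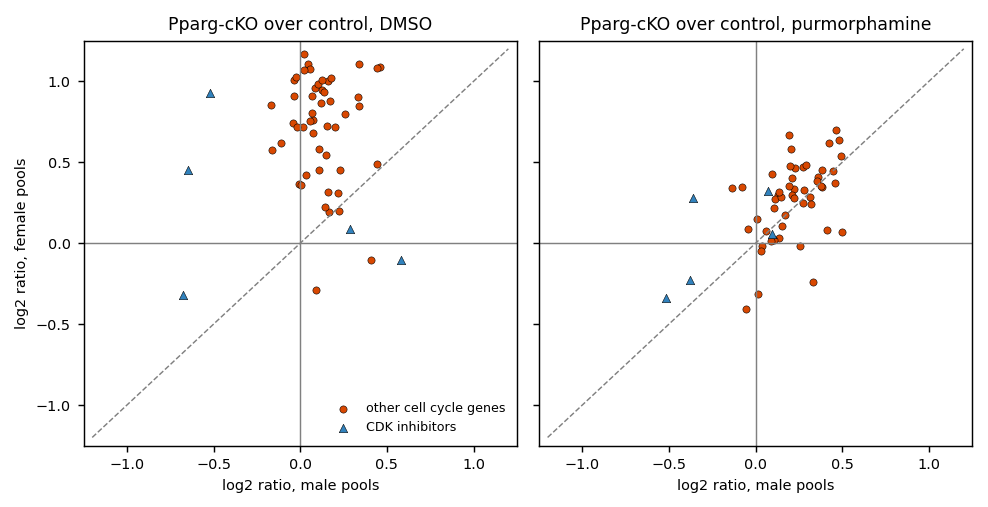
Log2 ratio of *Pparg-cKO* over control in the male (x axis) and the female pair of pools (y axis) with DMSO (left) and purmorphamine (right), 1 point per gene, with the dashed line where both are equal. With DMSO nearly all points lie above the dashed line near 0 on the male axis, and with purmorphamine they lie closer to the line.

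With purmorphamine, most of the genes again had higher values in *Pparg-cKO* than in control ureters. Limma called 0 of 55 genes (1.24% of all genes were called higher), 7 were higher at an unadjusted p under 0.05 (6.7% of all genes), 1 was lower, and 43 were higher in both pairs (34.3% of all genes). With the replicate number as a block, 0 were higher at an unadjusted p under 0.05 (limma). The rule of the methods took 0 as higher (3.04% of bright enough genes). The median was 0.25, where males had 0.20 and females 0.30, and all genes had -0.0042. *Foxm1* and *E2f8* again had the largest values, 0.58 ± 0.16 and 0.56 ± 0.19 (SE, adjusted p = 0.126 and 0.225), and *Cdkn2b* had -0.43 ± 0.13 (adjusted p = 0.179).

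Further S phase and mitosis genes outside the list were also called lower with purmorphamine in *Pparg-cKO* ureters. Of 58 other S phase genes, 8 were called lower and 1 higher, with a median of -0.43, where 627 and 409 of all 20229 genes were called lower and higher. *Exo1*, a DNA exonuclease, had -1.23, *Uhrf1*, needed to copy DNA methylation, -1.09 and *Asf1b*, a histone chaperone, -1.07 (adjusted p = 0.0313, 0.0352 and 0.0405), and *Rpa1*, a single-strand binding protein gene, had 0.72 (adjusted p = 0.0347). Of 87 other mitosis genes, 12 were called lower and 0 higher, with a median of -0.69, led by *Esco2* (-1.15, cohesin acetylation), *Sapcd2* (-1.09) and *Kif15* (-1.05, a mitotic kinesin). Of 25 G1 regulators of the RB and E2F pathway and 20 p53 target genes, limma called 0 in *Pparg-cKO* ureters. At an unadjusted p under 0.05 (limma), 10 and 2 were lower and 1 and 3 higher. Of all 20229 genes 2502 were lower and 1994 higher by that measure. The medians of the G1 regulators and the p53 targets were -0.19 and -0.05. In control ureters purmorphamine gave 0 calls among the S phase, mitosis and G1 genes, with medians of -0.30, -0.44 and -0.12, and 1 among the p53 targets, *Ddit4l*, an inhibitor of mTOR signaling (0.78, adjusted p = 0.0463).

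In *Pparg-cKO* against control ureters with DMSO, limma called 1 of 58 other S phase genes and 1 of 87 other mitosis genes higher. Of all genes 2.01% were called higher. The 2 genes were *Prim1*, a primase subunit (0.54, adjusted p = 0.0228), and *Fbxo5*, an inhibitor of the anaphase-promoting complex (0.75, adjusted p = 0.0407). Of 20 p53 targets, *Ddit4l* was called higher (0.63, adjusted p = 0.0170) and *Btg2*, an antiproliferative gene, lower (-0.60, adjusted p = 0.0285). Of all 20229 genes 385 were called lower. With purmorphamine *Btg2* had -0.68 (adjusted p = 0.0253) and *Plk2*, a kinase gene, 0.85 (adjusted p = 0.0127). The median of the other mitosis genes with DMSO was 0.49, where males had 0.17 and females 0.80, and that of the other S phase genes 0.28, with 0.11 and 0.39.

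Markers of the cell types of the ureter differed beside the cell cycle genes, and their part in the result was not tested. With purmorphamine in *Pparg-cKO* ureters, 5 of 6 superficial cell markers were called higher, with a median of 1.58, led by the keratin gene *Krt20* (2.43) and the uroplakin genes *Upk1a* (2.14) and *Upk1b* (1.72). Of all 20229 genes 409 were called higher. In control ureters 2 were (82 of all genes), with a median of 0.78. Of the 6 basal cell markers *Krt15* was called lower in both genotypes, and in *Pparg-cKO* ureters their median was -1.10, where the male array had -0.55 and the female array -1.62. The mean log2 intensity of the basal markers was 14.75 and 14.50 in control DMSO, 14.31 and 13.88 in control purmorphamine, 14.75 and 15.29 in *Pparg-cKO* DMSO and 14.17 and 13.87 in *Pparg-cKO* purmorphamine pools, so that the female *Pparg-cKO* DMSO pool was the highest here too. The 9 leukocyte markers, of which *Adgre1* was called lower in *Pparg-cKO* ureters, were all below 0 on both arrays in both genotypes, as were 7298 of all 20229 genes in *Pparg-cKO* and 5656 in control ureters, with medians of -0.71 and -0.63. Their mean level was 13.75 to 14.36 in DMSO and 13.13 to 13.63 in purmorphamine pools. The 10 markers of smooth muscle and mesenchyme were all above 0 on every array (on both arrays, 6861 of all genes in *Pparg-cKO* and 6255 in control ureters), with medians of 0.79 and 0.65 in *Pparg-cKO* and control ureters and mean levels of 14.89 to 15.22 and 15.63 to 15.77 in DMSO and purmorphamine pools, without a call. The 8 endothelial markers had medians of 0.49 and 0.72, with *Tek* called higher in both genotypes and *Cdh5* in *Pparg-cKO* ureters, and the 10 markers of urothelium of any layer had 0.04 and -0.02, with *Epcam* called lower in both. Of these markers, all were well above background in the 8 pools. The red cell gene *Hbb-b1* was so in 4 of 8. In *Pparg-cKO* against control ureters with DMSO, 4 of 6 superficial cell markers were called lower (385 of all genes, median -1.32, led by *Krt20* at -3.70), the endothelial gene *Kdr* and *Epcam* were called higher, and the basal markers, of which limma called 0 (unadjusted p under 0.05 for 2 with higher and 1 with lower values), had 0.06 for males and 0.78 for females.

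**Figure D5:**
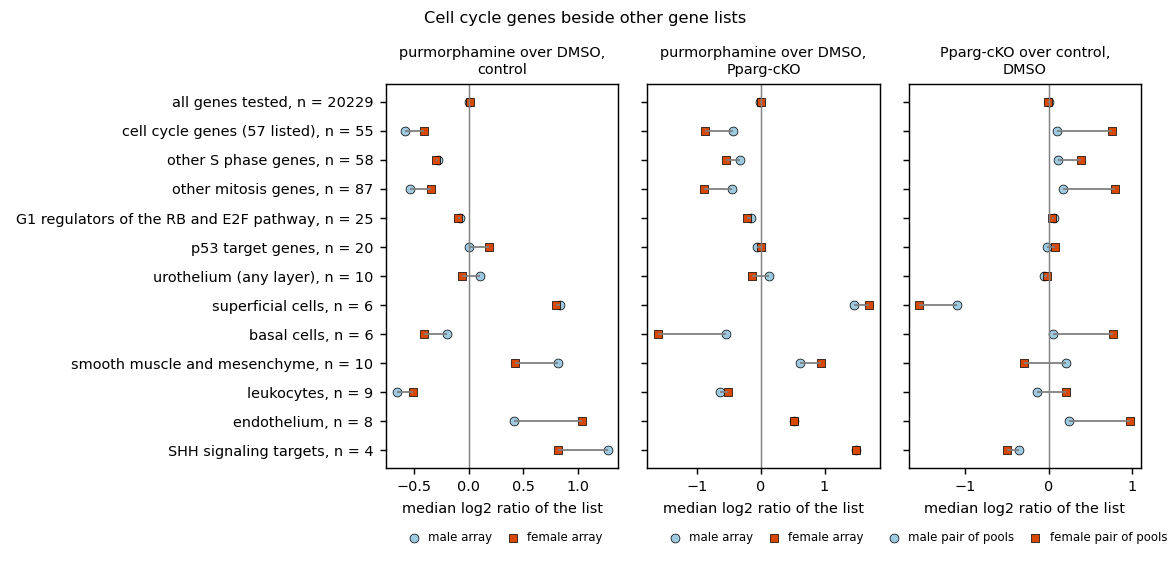
Median log2 ratio of each gene list in 3 comparisons, for the male (circle) and the female array or pair of pools (square), joined by a line, with the number of genes tested. The cell cycle genes and the other S phase and mitosis genes lie left of 0 with purmorphamine and right of 0 in *Pparg-cKO* ureters with DMSO, and the basal cell markers lie on the same sides.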

How the data were processed

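RNA from 8 pools was measured on 4 two-color arrays. The mean and background intensity of each spot and channel were deposited as scanned. The processed intensity, per the file headers, had its background subtracted and its dyes normalized by the scanner software, and the deposited log10 ratio (red over green) was used only to check the dyes. For the whole series, values of purmorphamine over DMSO per array were deposited as a score, a fold change with a sign, and each column has a median of 1. Its log2 correlated with the log ratios computed here (Pearson's r of 0.97 to 0.977 across probes), so its direction is known, whereas its normalization and centring are not stated. The submitters' processing notes name Agilent Feature Extraction 10.7.3.1, and the file headers name 12.2.0.7.

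Mean intensities were corrected by normexp (offset 50) and loess within arrays, and the 4 spots of a probe were averaged without marked outliers. A probe was well above background in a pool if more than 0.5 of its spots were. Limma (3.58.1, statmod 1.5.0, the package data.table, 1.17.8, R 4.3.3) compared purmorphamine with DMSO within arrays, and the genotypes across arrays channel by channel after Aquantile normalization, with the correlation of the channels within a spot (0.0668) taken from 4000 probes. The spread was estimated over all groups, and p was adjusted by Benjamini-Hochberg over 20229 genes. The fits were tested on simulated data. For the rule of the methods, processed signals were scaled to a 75th percentile of 1500 with a floor of 15. The 2 pools per group limit the precision.

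The members, roles and lists were chosen with earlier results of these data known. Values in every pool are given for *Mki67*, *Top2a*, the D-type cyclins, the CDK inhibitors and the 3 genes per role with the largest change in purmorphamine in *Pparg-cKO* or in *Pparg-cKO* against control with DMSO. All called members are named, and of other lists up to 3 called genes with the largest change each way.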

Additional observations from a re-analysis of the deposited data

How the results depend on the processing

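The median of the cell cycle genes kept its sign in the 4 comparisons of treatment or genotype under all alternatives run, and the calls did not. For purmorphamine in *Pparg-cKO* ureters, 12 genes were called, against 0 with the scaled processed signals, 0 without the filter on dim probes, 0 with the deposited fold changes and 1 with median centring. With the mean of the probes of a gene 9 were called (8 of them among the 12), and with the replicate number as a block 6 (5 of them among the 12). Leaving out 1 array gave 0 to 16 calls and medians of -0.88 to -0.44. For purmorphamine in control ureters, 0 genes were called by limma and 11 by the rule of the methods, leaving out 1 array gave 0 to 4 calls and medians of -0.58 to -0.41, and median centring moved the median from -0.49 to -0.30. The difference between the genotypes in the effect kept 0 calls, with medians of -0.39 to 0.0091 without 1 array, the last without *Pparg-cKO* replicate 2, and median centring moved the median from -0.16 to -0.38 (all genes from -0.02 to -0.17). For *Pparg-cKO* against control with DMSO, the 1 call became 0 without background subtraction, with processed signals, without the dim filter, with only probes above background in all pools, with the mean of the probes, with the replicate block and by the rule of the methods. Without normalization between arrays it became 1 other call, *Cdkn2b*, and the median moved from 0.42 to 0.23 (all genes to -0.15). Leaving out 1 array gave 0 to 3 calls and medians of 0.18 to 0.68. With purmorphamine the genotypes gave 0 calls throughout and medians of 0.22 to 0.29 without 1 array, and the median moved from 0.25 to 0.0913 without normalization between arrays, where all genes had -0.15. The causes were not tested, other than that leaving out an array leaves fewer samples and no filter leaves more genes to adjust for. Of 155 results for single called genes under alternatives, 53 kept their side of the threshold, 102 lost it and 0 changed sign.

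The replicate numbers share sex and dye but no stated litter or batch. The deviations of same-numbered pools from their group means correlated between groups with r of -0.149 to 0.47 across genes. The lowest value was between control and *Pparg-cKO* pools with DMSO, and the highest between those with purmorphamine. The number was not taken as a pairing in the main fit, although the genotype comparison with purmorphamine had this highest value. With the block, the members higher at an unadjusted p under 0.05 dropped from 23 to 7 with DMSO and from 7 to 0 with purmorphamine in the genotype comparisons, and the calls over all genes from 791 to 349 and from 634 to 157. A block with the numbers crossed between genotypes, added after seeing the data, gave 0 calls with DMSO among the cell cycle genes and 218 over all genes. Fits without 1 array assume that a lone pool varies like the others and used the intraspot correlation of all 4 arrays. A block for the slide could not be run, since all arrays were on 1 slide.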
